A study of Mus musculus with 3 samples.

Results

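Open chromatin of SOX2-ON cells was compared with that of wild-type caudal epiblast-like cells (CEpiLC) at the regions that were accessible in both. The peak lists of the 2 samples were merged, and a region was kept where both lists covered it on chromosomes 1 to 19 other than 6, 8 and 11. This selection gave 50774 shared regions among 128041 merged regions (39.7%), and 34060 regions were covered by the SOX2-ON list alone and 43207 by the CEpiLC list alone. Merging all 3 lists of the series on every chromosome gave 219473 regions.

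The assay was ATAC-seq, which reads where a transposase can insert adapters into open DNA. The cells were mouse embryonic stem cells of the HM1 line (strain 129) after 72 h of differentiation. All 3 samples were grown on inactivated feeder fibroblasts with serum and LIF and then moved into medium with 10 ng/ml bFGF and 5 µM LGK974, an inhibitor of WNT secretion, and after 2 days CHIR99021, which activates the WNT pathway inside the cell, was added. CEpiLC were wild type at Sox2 and received no doxycycline. Per the study's methods, the wild-type control was the parent HM1 TetON line, which already carried the doxycycline-dependent activator at Rosa26. SOX2-ON and SOX2-OFF came from 1 clonal line, labelled Sox2-/-, in which the endogenous gene had been ablated by genome editing and a Sox2 transgene at the Hprt locus was driven by doxycycline through a constitutive activator at Rosa26. Doxycycline at 1 µg/ml was kept on SOX2-ON throughout and was withdrawn from SOX2-OFF for differentiation. Each group had 1 sample of 50000 cells, so the comparison was between libraries and no spread between replicates could be given. Between SOX2-ON and CEpiLC, the level of SOX2, doxycycline itself, the engineered line and the library cannot be told apart.

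SOX2 is a transcription factor that binds DNA through an HMG box, often beside OCT4 in pluripotent cells, and it keeps epiblast cells pluripotent and later neural. WNT signalling acts through β-catenin and the TCF/LEF factors, which also carry an HMG box. In the caudal epiblast WNT and FGF signals switch on T, the Cdx genes and then the Hox genes, while SOX2 becomes lower as cells move towards mesoderm. Distal accessible regions are mostly enhancers and other cis-regulatory elements (CREs), and promoters are accessible in most cell states.

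Because peak scores grow with the depth and quality of a library, each region was given its percentile within each list: peaks on the 16 autosomes were ranked by −log10 p, from 0 for the weakest to 100 for the strongest, and the strongest peak in the region was used. The shift was the percentile in SOX2-ON minus that in CEpiLC, in points. A shift of at least 25 points was called, a limit of size and not a test. The lists held 85388 peaks for SOX2-ON and 95025 for CEpiLC. The same percentile stood for different scores, since percentile 80 lay at a −log10 p of 22.1 in SOX2-ON and 8.44 in CEpiLC, whereas percentile 20 lay at 3.30 and 3.27.

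The promoter of Sox2 itself stood at percentile 91.2 in SOX2-ON, 89.7 in CEpiLC and 89.5 in SOX2-OFF. The transgene is a cDNA whose reads would map to the exon of this gene, so the 2 sources cannot be told apart and the value does not check the labels. Promoters of the caudal epiblast genes T and Cdx2 were in all 3 lists. That of T was at 80.9 in SOX2-ON, 88.6 in CEpiLC and 89.9 in SOX2-OFF, and that of Cdx2 at 81.9, 91.8 and 87.8.

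The lists had much of their strong end in common. The 5000 strongest shared regions of each list had 3852 in common (77.0% of either). Among the 11301 regions with a mean percentile of 40 to 60, 12.6% were called higher in SOX2-ON and 32.3% higher in CEpiLC. The shift a region can have narrows towards both ends of the mean percentile, and none of 25 points is possible close to either end, so where calls fell along this scale followed in part from the scale. The plot of the percentiles in both lists shows a narrow band at the strong end that widens below percentile 80.

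**Figure D1:**
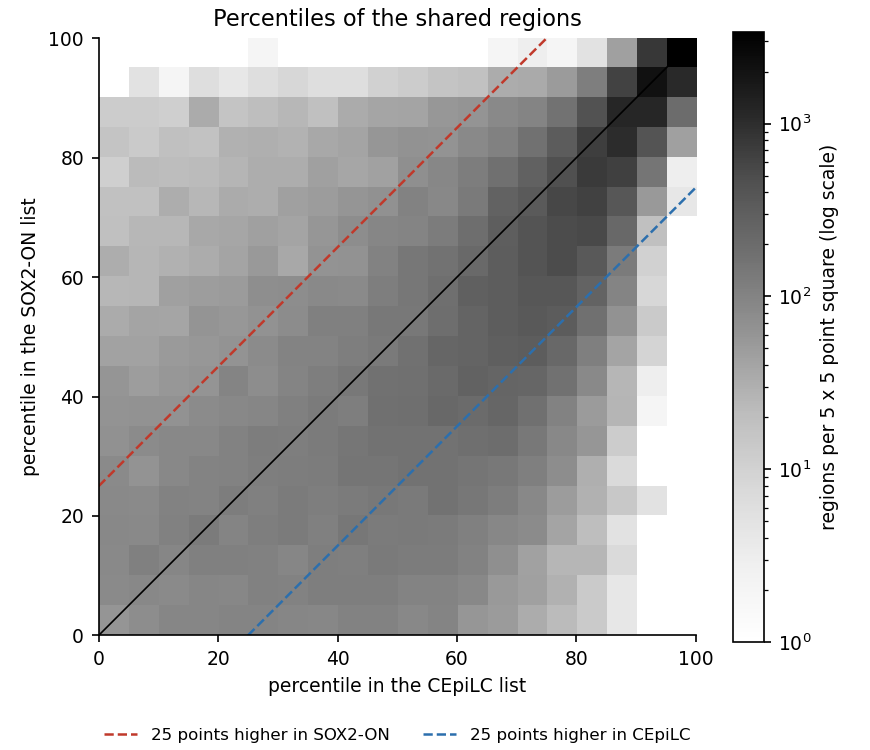
Percentile of each of the 50774 shared regions in the CEpiLC list (x axis) and in the SOX2-ON list (y axis), counted in squares of 5 by 5 points on a log colour scale. The solid line marks equal percentiles and the dashed lines mark shifts of 25 points; the strong end is narrow, and 3382 regions lie above the upper dashed line and 8075 below the lower one.

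Over all shared regions, 3382 (6.66%) were called higher in SOX2-ON and 8075 (15.9%) higher in CEpiLC. The median shift was −3.97 points, with quartiles at −17.0 and 2.46, and 34.6% of regions had a positive shift. This tilt depended on what the regions were ranked against. When each list was ranked among the shared regions only, the median shift was −0.60, and 4584 regions (9.03%) were called higher in SOX2-ON and 3954 (7.79%) higher in CEpiLC. Of the regions called by the main ranking, 90.5% of those higher in SOX2-ON and 48.1% of those higher in CEpiLC were called again, and 0 were called the other way. Counts near a group of genes are to be read against these shares, and against 8.18% and 9.35% when only peaks at a −log10 q of at least 2 were kept. The calls selected on the shift began at 25.01 and −25.01 points, and the nearest uncalled regions stood at 24.98 and −24.997 points.

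The regions with the largest shifts are shown first. They were the 8 in each direction with 1 peak in each list, at least 300 bp covered in both and a percentile of at least 80 in the higher list, a pool of 19083 regions. The largest shift towards SOX2-ON was in a gene desert, with Trib1 as the nearest coding gene at 147909 bp, where the region chr15:59796562-59797868 stood at percentile 94.7 in SOX2-ON, 2.96 in CEpiLC and 77.8 in SOX2-OFF, a shift of 91.8 points. Trib1 encodes a pseudokinase that steers transcription factors to degradation. The next largest lay 68098 bp upstream of Pax1 (87.4 points) and in Adgrl3, which encodes an adhesion receptor (86.2 points), and the other 5 were near Slco2a1, Npas2, Rbms1, Gpr37l1 and Cntnap5b, with shifts of 84.2 to 85.9 points. The window at the Pax1 region was 56.7% and that at the Cntnap5b region 80.3% repeat sequence.

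The largest shift towards CEpiLC lay in an intron of Stau2, which encodes an RNA-binding protein. This region stood at percentile 0.53 in SOX2-ON, 86.8 in CEpiLC and 85.3 in SOX2-OFF, a shift of −86.2 points. The regions next in order were in introns of Wipf1, a regulator of actin (−85.7 points), and Arid3b, an AT-rich DNA-binding factor (−83.2 points). The fifth was 10791 bp upstream of Fgf15, which encodes an FGF ligand of the early embryo. At this region, chr7:144884772-144885740, the percentile was 2.71 in SOX2-ON, 84.5 in CEpiLC and 72.0 in SOX2-OFF.

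The sequences of 6 of these and of later regions are given because they carry large differences outside promoters and exons, 1 for size alone and 5 near genes of the lists described below. Each is the 300 bp at the centre of the bases covered by both lists, on the plus strand of mm10, read from the RefSeq copy of GRCm38. Capitals mark matches, on either strand, to any of the 13 short motifs listed with the motif counts. The window near Klf5 (chr14:99275741-99276040) and the one near Six3 (chr17:85605706-85606005) were higher in SOX2-ON, as was the one in the gene desert beyond Trib1 (chr15:59797289-59797588). The windows upstream of Fgf15 (chr7:144885113-144885412), in Lef1 (chr3:131118041-131118340) and in Tcf7l2 (chr19:55754416-55754715) were higher in CEpiLC.
Trib1 desert: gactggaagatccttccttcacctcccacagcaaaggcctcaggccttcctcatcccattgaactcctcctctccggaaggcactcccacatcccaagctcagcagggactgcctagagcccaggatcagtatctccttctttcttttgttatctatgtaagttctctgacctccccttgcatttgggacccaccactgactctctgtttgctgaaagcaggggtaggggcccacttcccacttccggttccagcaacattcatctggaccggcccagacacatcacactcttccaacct
Klf5 upstream: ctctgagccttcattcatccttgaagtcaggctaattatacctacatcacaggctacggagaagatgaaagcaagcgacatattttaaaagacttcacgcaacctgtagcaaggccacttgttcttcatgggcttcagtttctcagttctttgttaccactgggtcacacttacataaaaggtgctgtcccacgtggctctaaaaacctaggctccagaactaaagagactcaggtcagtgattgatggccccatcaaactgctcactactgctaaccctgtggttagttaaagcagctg
Six3 upstream: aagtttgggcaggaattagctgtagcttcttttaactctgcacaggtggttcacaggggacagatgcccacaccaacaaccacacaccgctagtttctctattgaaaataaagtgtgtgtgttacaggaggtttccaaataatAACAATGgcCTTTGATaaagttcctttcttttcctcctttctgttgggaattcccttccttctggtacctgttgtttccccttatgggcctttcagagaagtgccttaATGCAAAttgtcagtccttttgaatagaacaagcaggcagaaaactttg
Fgf15 upstream: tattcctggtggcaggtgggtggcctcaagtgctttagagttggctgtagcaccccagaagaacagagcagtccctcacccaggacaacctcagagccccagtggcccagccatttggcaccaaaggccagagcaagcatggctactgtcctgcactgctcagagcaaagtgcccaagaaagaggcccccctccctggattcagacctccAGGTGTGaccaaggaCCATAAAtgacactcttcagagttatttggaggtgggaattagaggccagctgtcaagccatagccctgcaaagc
Lef1 intron: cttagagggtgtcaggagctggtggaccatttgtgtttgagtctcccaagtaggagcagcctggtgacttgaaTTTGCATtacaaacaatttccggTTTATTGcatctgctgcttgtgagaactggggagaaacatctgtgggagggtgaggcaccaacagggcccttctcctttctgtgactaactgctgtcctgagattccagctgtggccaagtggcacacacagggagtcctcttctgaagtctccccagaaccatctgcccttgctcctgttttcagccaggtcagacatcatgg
Tcf7l2 intron: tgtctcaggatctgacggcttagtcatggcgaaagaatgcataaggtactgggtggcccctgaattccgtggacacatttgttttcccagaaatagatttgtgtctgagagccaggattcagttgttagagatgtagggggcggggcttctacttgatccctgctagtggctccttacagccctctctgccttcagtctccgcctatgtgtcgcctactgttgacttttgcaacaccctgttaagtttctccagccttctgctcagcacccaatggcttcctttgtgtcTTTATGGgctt
The Six3 window held the SOX letters on the plus strand close to the TCF/LEF letters on the minus strand, with the OCT letters further along. The Fgf15 window held the T-box and CDX letters near each other, the Lef1 window held OCT and CDX letters, and the Tcf7l2 window held CDX letters. The windows near Trib1 and Klf5 held none. A match says only that these letters are present.

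Promoters moved less than other regions. A region was a promoter where it lay within 1 kb of any annotated transcript start. Of 17413 promoters, 2.54% (Wilson 95% interval 2.32 to 2.78) were called higher in SOX2-ON and 7.61% (7.22 to 8.01) higher in CEpiLC. Of 33361 regions outside promoters, 8.81% (8.51 to 9.12) and 20.2% (19.8 to 20.7) were called. These intervals cover counting error over regions only. Promoters were also stronger, with median percentiles of 87.5 in SOX2-ON and 89.2 in CEpiLC against 52.3 and 62.6 elsewhere, and richer in GC, with a median of 60.7% against 51.3%. Among regions with a mean percentile of 40 to 80, promoters were called in 5.76% and 18.6% of cases, and the others in 9.04% and 21.1%.

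**Figure D2:**
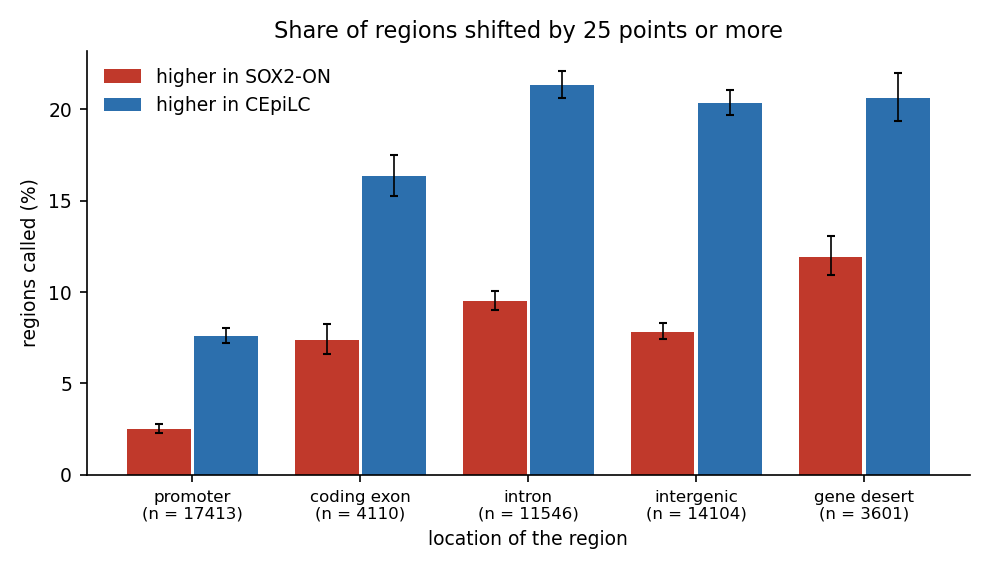
Share of shared regions called higher in SOX2-ON (red) or higher in CEpiLC (blue), in percent (y axis), by location (x axis, with the number of regions), with bars starting at 0. Error bars are Wilson 95% intervals for counting error; promoters have the lowest shares, 2.54% and 7.61%.

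Regions in coding genes outside their coding exons, called introns here, had 9.53% and 21.3% called. Intergenic regions within 100 kb of a coding start had 7.84% and 20.4%. Gene deserts, more than 100 kb from any coding start, had 11.9% (10.9 to 13.04) called higher in SOX2-ON, the largest share of the 5 classes in that direction, and 20.6% higher in CEpiLC. Across the 16 chromosomes the median shift ran from −5.59 to −2.82 points.

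Few promoters had large shifts. The 5 largest towards SOX2-ON in the pool of strong regions were within 1 kb of starts of Foxd4, Gm17978, Mtf2, Gm32335 and Fbxo15, with shifts of 73.1 to 77.3 points. The Fbxo15 window was 71% repeat sequence. Mtf2 encodes a Polycomb-like protein that guides PRC2, and its region stood at percentile 89.96 in SOX2-ON, 15.7 in CEpiLC and 34.4 in SOX2-OFF. This region was at another annotated start of Mtf2, 8819 bp from the nearest coding start of the gene. The 5 largest towards CEpiLC were at starts of Gm21056, Rassf9, Siah3, Syn3 and Msgn1, from −79.7 to −70.1 points. The Syn3 region lay 6522 bp from the nearest coding start of Syn3. Msgn1 encodes a bHLH factor of the presomitic mesoderm. Its promoter region, chr12:11208378-11210525, was at percentile 10.9 in SOX2-ON, 81.0 in CEpiLC and 83.3 in SOX2-OFF, and covered 306 bp in SOX2-ON against 2148 bp in CEpiLC.

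For developmental and signalling genes, a region was assigned to the nearest coding start within 100 kb. Over 9 lists, 114 genes had 629 shared regions, of which 43 were called higher in SOX2-ON and 91 higher in CEpiLC. Over all shared regions 6.66% and 15.9% were called. Of the 133 regions at the genes' own promoters, 108 (81.2%) shifted by less than 10 points, 1 was called higher in SOX2-ON and 5 higher in CEpiLC. Among all promoters the shares called were 2.54% and 7.61%. Of the 496 other regions, 8.47% and 17.3% were called, beside 8.81% and 20.2% of all regions outside promoters. Lef1, Etv5 and Sox21 are each in 2 of the lists. The promoter of Pou5f1, which encodes OCT4, stood at 92.6, 88.8 and 90.9. The largest promoter shifts were towards CEpiLC, at Msgn1 and Hoxd3.

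**Figure D3:**
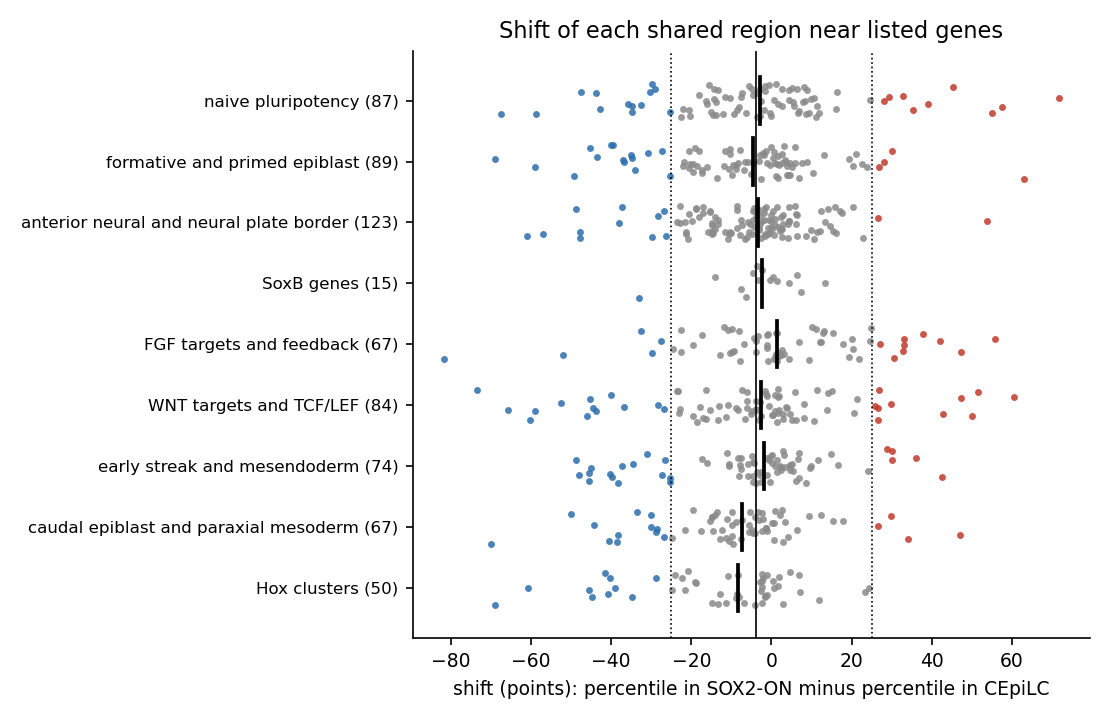
Shift in points (x axis) of every shared region near the genes of 9 lists (y axis, with the number of regions); red and blue points are called regions and grey points are not called. Short bars mark the median of each list, the long solid line the median of all shared regions (−3.97) and dotted lines the limits of 25 points; the Hox list has no red point.

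Naive pluripotency genes had calls in both directions, with single distal regions far higher in SOX2-ON and others far higher in CEpiLC. Of 87 regions near 13 genes, 9 (10.3%) were called higher in SOX2-ON and 13 (14.9%) higher in CEpiLC, with a median of −2.75 points, beside 6.66% and 15.9% of all shared regions. Ranked among shared regions only, 11 (12.6%) and 4 (4.60%) were called, the opposite order, against 9.03% and 7.79% over all. Ranked by fold enrichment, 8 and 17 were called, and the median was −4.15 points against −3.25 over all. Klf5 and Klf4 encode Krüppel-like factors of the naive network. A region 21764 bp upstream of Klf5, chr14:99274856-99276927, stood at percentile 87.3 in SOX2-ON, 15.5 in CEpiLC and 49.8 in SOX2-OFF, a shift of 71.8 points. A region 66911 bp downstream of the Klf4 start, chr4:55463808-55464859, within 1 kb of a non-coding start, stood at 94.5, 36.8 and 36.4.

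Other naive genes had regions on both sides. Esrrb encodes an orphan nuclear receptor. An intronic region, chr12:86501630-86502253, held the ESRRB motif and stood at percentile 74.9 in SOX2-ON and 19.8 in CEpiLC, with no SOX2-OFF peak. Another, 77619 bp downstream of the start, stood at 8.02 and 75.6, the largest shift of the list towards CEpiLC (−67.6 points). Prdm14 encodes a PR-domain repressor of differentiation. Its 2 called regions were both higher in SOX2-ON, and the one 15070 bp upstream, in a coding exon of Ncoa2, held SOX and OCT motifs and stood at 56.9 in SOX2-ON, 11.6 in CEpiLC and 12.0 in SOX2-OFF.

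Formative and primed epiblast genes had 4 of 89 regions (4.49%) called higher in SOX2-ON and 15 (16.9%) higher in CEpiLC, the latter near the 15.9% of all shared regions. Ranked among shared regions only, 6 and 6 (6.74% each) were called, against 9.03% and 7.79% over all. At a −log10 q of at least 2 the shares were 8.33% and 5%, against 8.18% and 9.35% over all. Dnmt3a, which encodes a de novo DNA methyltransferase, held 9 of these calls. Its intronic region chr12:3822800-3824037 stood at percentile 85.2 in SOX2-ON, 22.1 in CEpiLC and 84.9 in SOX2-OFF, whereas 7 others were higher in CEpiLC, the largest at −69.1 points. A region 26813 bp upstream of Otx2, which encodes a homeodomain factor of the anterior epiblast, stood at 95.8 in SOX2-ON, 67.8 in CEpiLC and 62.6 in SOX2-OFF.

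Anterior neural and neural plate border genes had 2 of 123 regions (1.63%) called higher in SOX2-ON and 11 (8.94%) higher in CEpiLC. Over all shared regions the shares were 6.66% and 15.9%. Ranked among shared regions only, 10 (8.13%) and 8 (6.50%) of the 123 were called, against 9.03% and 7.79% over all. At a −log10 q of at least 2 the shares were 12% and 5%, the opposite order. Both regions higher in SOX2-ON were near Six3, which encodes a homeodomain factor of the anterior neural plate. The region 7016 bp upstream, chr17:85605119-85606592, stood at percentile 54.6 in SOX2-ON and 0.79 in CEpiLC, with no SOX2-OFF peak. Regions of Dmbx1 (−61.0 points), Pou3f3 (−57.1) and Pax7 (−48.7) were the furthest towards CEpiLC. SoxB genes, of which Sox2, Sox14 and Sox21 had 15 shared regions, had 0 called higher in SOX2-ON and 1 higher in CEpiLC, 41655 bp downstream of Sox2, at percentile 37.6 in SOX2-ON, 70.7 in CEpiLC and 37.3 in SOX2-OFF. At a −log10 q of at least 2 the SoxB shares were 23.1% and 7.69%, the opposite order over few regions.

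Near targets and feedback genes of FGF signalling the larger count was towards SOX2-ON. Of 67 regions near 10 genes, 9 (13.4%) were called higher in SOX2-ON and 5 (7.46%) higher in CEpiLC, against 6.66% and 15.9% over all, and the median shift was 1.27 points against −3.97. Ranked among shared regions only, 18 (26.9%) were called higher in SOX2-ON and 3 (4.48%) higher in CEpiLC, against 9.03% and 7.79%. Ranked by fold enrichment, 13 and 9 were called and the median was −1.23 points, against −3.25 over all. Spry1, Spry2 and Spry4 encode Sprouty inhibitors of receptor tyrosine kinase signalling. Spry1 had 3 regions higher in SOX2-ON, with shifts of 33.2 to 37.8 points. Spry2 had 2, at percentiles 79.6 and 84.3 in SOX2-ON against 23.8 and 36.9 in CEpiLC. Spry4 had 2 in each direction. Dusp6, which encodes an ERK phosphatase, had a region at 83.8 in SOX2-ON, 41.8 in CEpiLC and 72.0 in SOX2-OFF. The region of Fgf15 was the furthest towards CEpiLC in this list.

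WNT targets and TCF/LEF genes had calls in both directions, 10 of 84 (11.9%) higher in SOX2-ON and 13 (15.5%) higher in CEpiLC, beside 6.66% and 15.9% over all. At a −log10 q of at least 2 the shares were 13.7% and 1.96%. Lef1, which encodes a TCF/LEF factor, had 4 called regions, all higher in CEpiLC. Its intronic region chr3:131117616-131118986 stood at percentile 22.5 in SOX2-ON, 81.5 in CEpiLC and 84.1 in SOX2-OFF. Sp5 encodes a zinc-finger factor induced by WNT, and a region 11640 bp downstream stood at 1.21, 66.9 and 40.1. Tcf7l2, the gene of another TCF/LEF factor, had 3 called regions higher in SOX2-ON and 2 higher in CEpiLC, with chr19:55754217-55754764 at 3.48, 76.9 and 77.2. Myc, a growth regulator, had a region 9150 bp upstream at −60.3 points, one 6059 bp upstream at 42.9 points and one 65661 bp downstream at 51.6 points. Tnfrsf19, the gene of a TNF receptor family member, had 3 regions higher in SOX2-ON, the largest at 60.5 points, and 1 higher in CEpiLC.

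Early streak and mesendoderm genes had 5 of 74 regions (6.76%) called higher in SOX2-ON and 15 (20.3%) higher in CEpiLC, with a median of −1.88 points, beside 6.66% and 15.9% over all. Ranked among shared regions only, 5 (6.76%) and 7 (9.46%) were called, against 9.03% and 7.79% over all. At a −log10 q of at least 2 both shares were 12.5%. Eomes encodes a T-box factor of mesendoderm. Upstream of it, 3 regions were higher in CEpiLC, of which chr9:118468188-118470338 stood at percentile 37.4 in SOX2-ON, 82.4 in CEpiLC and 85.5 in SOX2-OFF, and 1 was higher in SOX2-ON. Gsc, the gene of the homeodomain factor Goosecoid, had 3 regions higher in CEpiLC and 0 higher in SOX2-ON, the largest from 1.11 in SOX2-ON to 49.9 in CEpiLC. Foxa2, the gene of a forkhead factor of endoderm, had 3 regions higher in CEpiLC, and 1 with a SOX motif higher in SOX2-ON. A region 9588 bp upstream of Mixl1, the gene of a paired-type homeodomain factor, stood at 22.7, 60.1 and 77.9. Ranked by fold enrichment, the shifts of the largest Gsc region and of the Mixl1 region were −16.5 and −9.95 points, under the limit.

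Caudal epiblast and paraxial mesoderm genes had 4 of 67 regions (5.97%) called higher in SOX2-ON and 12 (17.9%) higher in CEpiLC, and the median was −7.35 points. In this main ranking both shares were near the background of 6.66% and 15.9%. Ranked among shared regions only, 6 (8.96%) and 9 (13.4%) were called, against 9.03% and 7.79% over all. Ranked by fold enrichment, 9 and 10 of the 67 were called, and the median was −6.57 points against −3.25 over all. Msgn1 had 3 regions called higher in CEpiLC, the promoter among them.

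T encodes the T-box factor Brachyury. It had 3 regions called, all higher in CEpiLC, of which 2 upstream lay in introns of T2 and were at −26.8 and −24.6 points when ranked by fold enrichment. The region chr17:8455240-8457088, 19829 bp downstream of the start, stood at percentile 13.9 in SOX2-ON, 63.8 in CEpiLC and 56.8 in SOX2-OFF. Fgf8, the gene of an FGF ligand of the streak, had 2 regions higher in CEpiLC, at −44.4 and −40.5 points, which by fold enrichment were at 4.13 and −18.5 points. Dll1, the gene of a Notch ligand, had 1 region called in each direction. Nkx1-2, the gene of a homeodomain factor of the caudal epiblast, had a region 1653 bp from its start at 77.5 in SOX2-ON, 30.5 in CEpiLC and 78.5 in SOX2-OFF. The promoter of Fgf17, another FGF ligand gene, stood at 51.4, 17.4 and 55.8, the only case in the 9 lists of a gene's own promoter called higher in SOX2-ON.

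The Hox clusters on chromosomes 2 and 15 had calls towards CEpiLC only in the main ranking. Of 50 regions nearest to the 18 Hoxc and Hoxd genes, 0 were called higher in SOX2-ON and 10 (20%) higher in CEpiLC, with a median of −8.28 points. This share was beside a background of 15.9%. Ranked among shared regions only, 1 (2.00%) and 7 (14.0%) were called, against 9.03% and 7.79% over all. Ranked by fold enrichment, 2 and 9 were called, and the median was −4.18 points against −3.25 over all. Hox genes encode homeodomain factors that set position along the body axis. The region at chr2:74740350-74741086, within 1 kb of a Hoxd3 start, stood at percentile 6.52 in SOX2-ON, 75.6 in CEpiLC and 61.0 in SOX2-OFF. One 26306 bp downstream of the Hoxd1 start, chr2:74789286-74790852, stood at 20.1, 80.8 and 76.1. Hoxc13 had 3 upstream regions called, from −44.8 to −40.4 points. Over the 22 regions at the genes' own promoters, 2 were called and the median shift was −7.45 points, and the promoter of Hoxd8 was the highest, at 11.8 points. The genes of 1 cluster are close together, so these regions are neighbours and not separate loci.

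**Figure D4:**
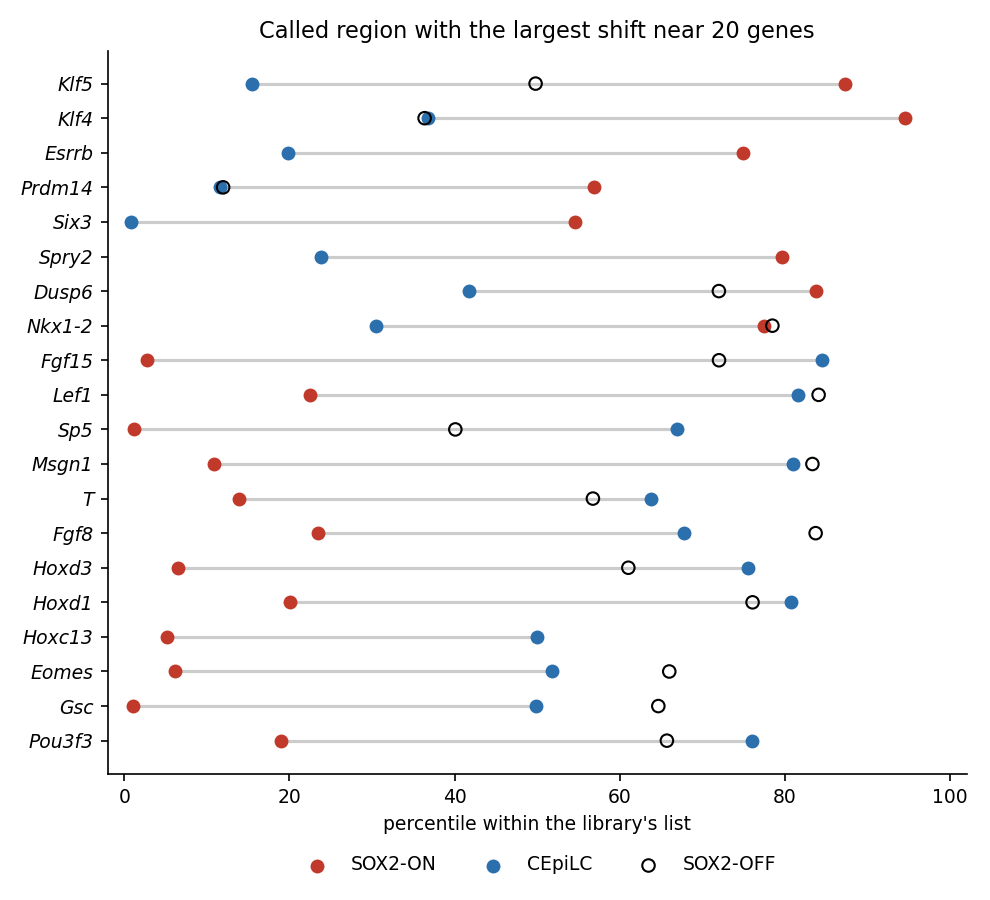
Percentile within each library's list (x axis) of 1 called region near each of 20 listed genes (y axis). Points are SOX2-ON (red), CEpiLC (blue) and SOX2-OFF (open circle, where a peak overlapped). The genes and 1 direction for each were picked, and the region shown has the largest called shift in that direction. Esrrb is shown towards SOX2-ON, although its largest shift was towards CEpiLC (−67.6 points). The regions were selected on the distance between red and blue; SOX2-OFF is close to CEpiLC at Msgn1, Lef1, Hoxd1, Klf4 and Prdm14 and close to SOX2-ON at Nkx1-2.

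The SOX2-OFF list was not used to choose the regions and shares its cell line with SOX2-ON. A SOX2-OFF peak overlapped 89.0% of all shared regions, 77.0% of those called higher in SOX2-ON and 83.2% of those called higher in CEpiLC. Where one did, SOX2-OFF was nearer to CEpiLC at 4486 of the 6719 regions higher in CEpiLC (66.8%), and nearer to SOX2-ON at 1572 of the 2603 regions higher in SOX2-ON (60.4%). Its median percentile was 55.4 at the former and 53.0 at the latter, against 77.6 at regions not called. Because regions were chosen for extreme values in the other lists, a middle value in SOX2-OFF follows in part from the choice. Near listed genes, SOX2-OFF was nearer to CEpiLC at 9 of the 12 caudal regions called higher in CEpiLC, at 12 of the 15 early streak regions and at 6 of the 10 Hox regions. Unlike the 66.8% above, these totals include regions with no SOX2-OFF peak, 1 caudal and 1 Hox. Of the 9 naive regions called higher in SOX2-ON, SOX2-OFF was nearer to CEpiLC at 5, nearer to SOX2-ON at 3 and without a peak at 1.

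Sequence was not used to choose the regions. The letters searched on both strands of the 300 bp windows were SOX AACAATG, OCT ATGCAAA, TCF/LEF ATCAAAG, CDX TTTATNG, T-box AGGTGTG, FOXH1 AATNCACA, FOX TGTTTAC, KLF GGGTGTGG, ESRRB TCAAGGTCA, NFY CCAATCA, TEAD CATTCCA and CTCF CACNAGGGG, and for GATA factors the word AGATAAG. No word contains another, but neighbouring matches can share letters. Over all shared regions the CDX motif was the most frequent, in 8.24% of windows, and the ESRRB motif the least, in 0.57%. The SOX motif was in 3.51%, OCT in 4.76%, TCF/LEF in 4.32%, T-box in 7.01%, GATA in 3.19% and NFY in 4.59%. FOXH1 was in 3.47%, FOX in 3.36%, KLF in 3.73%, TEAD in 4.24% and CTCF in 3.04%.

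The SOX, OCT and GATA motifs were more frequent in regions higher in SOX2-ON than in those not called. Outside promoters SOX was in 190 of 2940 windows (6.46%, Wilson 95% interval 5.63 to 7.41), against 4.15% (3.91 to 4.41) of those not called and 3.57% (3.15 to 4.04) of those higher in CEpiLC. In promoters the shares were 6.33% (4.42 to 9.003), 1.94% (1.74 to 2.17) and 2.57% (1.84 to 3.56), where the median GC was 52.3%, 62.0% and 53.7%. The intervals cover counting error over regions of 1 pair of libraries. Outside promoters the median GC was 50% in windows higher in SOX2-ON, 51.3% in those not called and 51.7% in those higher in CEpiLC, and shares were also taken within 3 equal classes of GC. In the lowest class, outside promoters, the SOX shares were 8.47% (7.19 to 9.97), 5.71% (5.28 to 6.18) and 5.14% (4.38 to 6.03), and in the middle class 5.37% (4.15 to 6.93), 3.58% (3.22 to 3.98) and 2.94% (2.39 to 3.62). In the highest class the intervals overlapped.

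OCT was in 7.01% (6.14 to 7.99) of windows outside promoters that were higher in SOX2-ON, 5.69% (5.40 to 5.99) of those not called and 5.45% (4.94 to 6.02) of those higher in CEpiLC. In the lowest class of GC the first 2 OCT shares were 10.3% (8.87 to 11.9) and 8.08% (7.57 to 8.63), and in the middle class their intervals overlapped. GATA was in 5.31% (4.55 to 6.18), 4.05% (3.81 to 4.31) and 3.02% (2.64 to 3.46), and within the lowest and the middle class the intervals of the first 2 overlapped. The GATA share in regions higher in CEpiLC stayed below that in regions not called in these 2 classes. It was 3.77% (3.12 to 4.55) against 5.28% (4.86 to 5.73) in the lowest class and 2.60% (2.08 to 3.24) against 3.85% (3.47 to 4.26) in the middle class. In the highest class these intervals overlapped. TCF/LEF was higher in regions higher in CEpiLC, with 5.10% (4.36 to 5.96), 5.09% (4.81 to 5.37) and 6.04% (5.50 to 6.64), and within the lowest and the middle class its intervals overlapped. CTCF was lower in regions higher in SOX2-ON, at 2.58% (2.07 to 3.22) against 3.95% (3.71 to 4.21) not called, and its intervals also overlapped within both classes. For the other 8 motifs the intervals of called regions overlapped those of regions not called.

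A split by strength was added after the values were seen. At a percentile of at least 80 in the higher list, 4.07% of regions were called higher in SOX2-ON and 5.49% higher in CEpiLC. A called region meets this limit through the list in which it is high, and percentile 80 is a higher score in SOX2-ON than in CEpiLC, so the shares are a description only. Outside promoters SOX was in 8.60% of 744 such windows higher in SOX2-ON, 4.03% of 6470 not called and 3.58% of 922 higher in CEpiLC, and TCF/LEF in 4.17%, 6.12% and 10.1%.

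**Figure D5:**
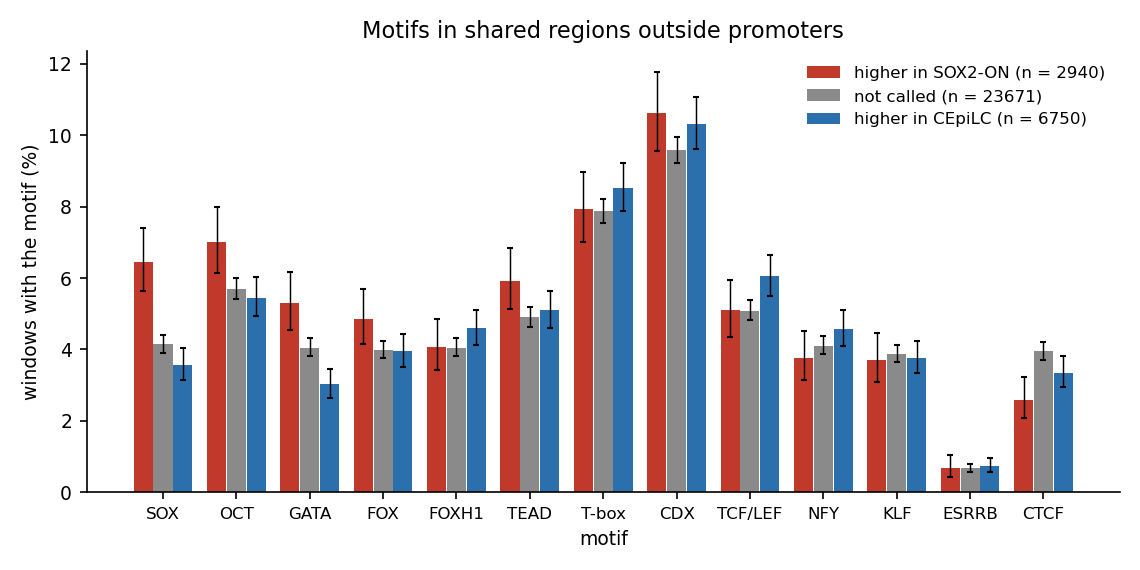
Percentage of 300 bp windows that hold each motif (y axis, from 0) for 13 motifs (x axis), in shared regions outside promoters, split by call. Error bars are Wilson 95% intervals; SOX is at 6.46% in regions higher in SOX2-ON (red) against 4.15% in regions not called (grey), and TCF/LEF at 6.04% in regions higher in CEpiLC (blue) against 5.09%.

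Stretches of 60 bp around the motif are shown for the 3 strong regions with the largest shift that held the SOX motif and were higher in SOX2-ON, and for 2 that held the TCF/LEF motif and were higher in CEpiLC, outside promoters and exons. They were chosen after the values were seen. The sequences are of the plus strand and the capitals mark the motif of the set on either strand. The SOX set lay 11832 bp upstream of Npffr1 (chr10:61583319-61583378), in an intron of Camk1d (chr2:5484354-5484413) and 20334 bp upstream of Pdcd5 (chr7:35668651-35668710).
Npffr1 SOX: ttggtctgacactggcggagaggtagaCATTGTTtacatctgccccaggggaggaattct
Camk1d SOX: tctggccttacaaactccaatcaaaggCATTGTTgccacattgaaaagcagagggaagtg
Pdcd5 SOX: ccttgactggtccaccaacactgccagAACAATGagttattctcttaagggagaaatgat
Their percentiles were 80.6, 87.3 and 80.4 in SOX2-ON and 2.91, 9.75 and 11.1 in CEpiLC, and only the Npffr1 region of these 3 had a SOX2-OFF peak, at 54.2. The Npffr1 stretch also spells the FOX letters, which share 4 bases with the SOX match, and the Camk1d stretch spells the NFY and TCF/LEF letters in lower case. The TCF/LEF pair lay 46758 bp downstream of Utp23 (chr15:51924886-51924945) and 9640 bp upstream of Sparcl1 (chr5:104123527-104123586).
Utp23 TCF/LEF: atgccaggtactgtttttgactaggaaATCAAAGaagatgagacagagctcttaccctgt
Sparcl1 TCF/LEF: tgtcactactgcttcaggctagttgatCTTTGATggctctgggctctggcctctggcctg
Their percentiles were 25.8 and 29.1 in SOX2-ON, 82.8 and 84.9 in CEpiLC and 88.3 and 68.9 in SOX2-OFF.

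Peak width went with rank in part. The covered width was 892 bp in SOX2-ON and 821 bp in CEpiLC at the median, and the median log2 ratio of the widths was 0.02. Relative to that median, 6244 regions (12.3%) were at least 2-fold wider in SOX2-ON and 4768 (9.39%) at least 2-fold wider in CEpiLC. Of the regions called higher in SOX2-ON by rank, 46.1% were wider in SOX2-ON and 3.34% wider in CEpiLC. Of those called higher in CEpiLC, 25.7% were wider in CEpiLC and 7.85% wider in SOX2-ON. A stronger signal is called over a longer stretch, so width and rank are not separate measures.

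Width was also compared among 12940 regions at a percentile of at least 80 in both lists. The 5 that were wider in SOX2-ON by the largest ratio were near Vmn1r2, Rapgef2, 4930447C04Rik, Tcp10c and 2610042L04Rik. The Rapgef2 region, in a gene desert, held OCT and TCF/LEF motifs and covered 2195 bp in SOX2-ON against 337 bp in CEpiLC, at percentiles 82.8 and 80.2. The window at Vmn1r2, a pheromone receptor gene, was 73.7% repeat, and 2610042L04Rik and Tcp10c belong to families with near-identical copies, so those 3 are uncertain. The 5 wider in CEpiLC were at the promoters of Cd109 and Mapkbp1, upstream of March6, in an intron of Ralgapa2, and 71284 bp from Car2. The windows at Cd109 and Mapkbp1 held the KLF motif, that at March6 SOX, CDX and T-box, that in Ralgapa2 OCT and that near Car2 NFY. The March6 window was 49.0% and the Car2 window 44.0% repeat, so these are uncertain too. The Cd109 promoter, of a surface antigen that binds TGFβ, covered 783 bp in SOX2-ON and 3037 bp in CEpiLC, at percentiles 91.2 and 91.8.

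Some genes had several called regions, and a gene with more shared regions can have more calls. Over all shared regions 6.66% were called higher in SOX2-ON and 15.9% higher in CEpiLC. The 10 genes with most regions higher in SOX2-ON were Smad7, Ctnnd1 and Dst with 5 each, and Arhgef3, Rere, Tanc1, Tgif1, Barx2, Tspan5 and Shroom3 with 4 each. Smad7, which encodes an inhibitor of TGFβ and BMP signalling, had 20 shared regions, of which 4 were called higher in CEpiLC. Barx2, the gene of a homeodomain factor, had 12 with 0 called higher in CEpiLC, and Ctnnd1, the gene of the cadherin partner p120-catenin, had 10 with 1. Tgif1, which encodes a homeodomain repressor of SMAD signalling, had 21 with 2. Rere had 26 with 7 called higher in CEpiLC, and Tspan5 had 23 with 5, so both had more calls towards CEpiLC than towards SOX2-ON.

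The 10 genes with most regions higher in CEpiLC were Btbd9 and Chil4 with 10 each, Gm4791 with 9, Casz1, Zfp982 and Thoc1 with 8 each, and Lmx1b, Papola, Tiam1 and Dnmt3a with 7 each. Papola, the gene of a poly(A) polymerase, had 7 of 11 regions called, with a median shift of −28.5 points. Over all shared regions 15.9% were called higher in CEpiLC and the median was −3.97 points. Btbd9 had 26 shared regions, of which 3 were called higher in SOX2-ON. Lmx1b, which encodes a LIM homeodomain factor of limb and midbrain, had 7 of 21 called higher in CEpiLC and 0 higher in SOX2-ON. Casz1, the gene of a zinc-finger factor of heart and neural cells, had 8 of 29 called higher in CEpiLC and 1 higher in SOX2-ON. Chil4, Gm4791 and Zfp982 lie among near-identical gene copies, where reads can be placed in the wrong copy, and the median repeat share at Chil4 was 40.2%, so their counts are uncertain.

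The cultures could hold other cells, and their markers were counted in the same way. Of 27 regions near 8 feeder fibroblast markers, 1 (3.70%) was called higher in SOX2-ON and 3 (11.1%) higher in CEpiLC, with a median of −9.92 points, beside 6.66% and 15.9% over all shared regions. Of 52 regions near 10 extraembryonic markers, 5 (9.62%) and 10 (19.2%) were called, and 4 of the 15 were the regions of Eomes, which is also on the early streak list. Near ribosomal protein genes, which every cell uses, 9 of 203 regions (4.43%) were higher in SOX2-ON and 43 (21.2%) higher in CEpiLC, again beside 6.66% and 15.9%, although 0 of their 56 promoters were called either way. The part of these cells in the shifts was not tested.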

How the data were processed

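ATAC-seq peak lists of 3 samples were used, 1 per group. Per the study's methods, the authors ran the nf-core/atacseq pipeline on each sample: Trim Galore for adapters, BWA for alignment to mm10, filters that included loss of mitochondrial reads, and MACS2 for broad peaks. Versions of Trim Galore, BWA and MACS2 are not given in the sources used here. Each deposited peak has a ratio (fold enrichment over local background), a −log10 p and a −log10 q, and the lists ended at a q of 0.1. Read totals were not used, so the depth is unknown beyond these scores. Broad calling joins neighbouring sites, and whether cut positions were shifted is not stated, so widths are approximate.

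Peaks were merged with bedtools 2.31.1. Percentiles were computed from the −log10 p, with ties broken by fold enrichment, on 16 autosomes, since chromosomes 6, 8 and 11 were left out by the selection. Locations came from GENCODE M21, and sequence, GC and soft-masked repeats from RefSeq GRCm38.p6, the same build as mm10. Motifs were matched exactly. The sequence of 1 region is not reported here. Functions were tested on simulated data. Groups of 1 sample allow no test, so calls are limits of size, and Wilson 95% intervals cover counting error only.

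The members, gene lists, motifs and limits were chosen with earlier results of these data known. Named regions were the 8 largest shifts in each direction (5 among promoters, 5 by width), named genes the 10 with most called regions in each direction and, for listed genes, the region with the largest shift and the promoter.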

Additional observations from a re-analysis of the deposited data

How the results depend on the processing

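No paired analysis was possible because SOX2-ON and CEpiLC are 1 library each. Each share is given as higher in SOX2-ON, then higher in CEpiLC. Of 549 values recomputed under another choice, 365 stayed within the counting interval or 1.5 times the main value and 184 moved beyond it, and the cause was not tested.

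With only peaks at a −log10 q of at least 2, regions called were 8.18% and 9.35% (46.7% of calls towards SOX2-ON), widths 8.89% and 5.70%, promoters 3.28% and 3.74%, other regions 11.8% and 13.5%, and calls towards CEpiLC 7.14% near naive, 12.5% near early streak and 10.0% near Hox genes. TCF/LEF was then in 7.40% of windows higher in CEpiLC, and SOX2-OFF peaks overlapped 87.0% and 91.4%. Where common bases were at least 50%, the values were 3.54% and 12.0% (22.7%), widths 0.0202% and 0%, which the requirement on overlap itself limits, promoters 1.14% and 4.59%, other regions 5.31% and 17.5%, 0% towards SOX2-ON near early streak genes, 8.33% towards CEpiLC near caudal genes, SOX in 7.84% of windows higher in SOX2-ON, and SOX2-OFF peaks at 82.4% and 86.4%.

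Ranked by fold enrichment, calls towards SOX2-ON were 7.96% (33.5% of calls), 4.11% of promoters and 9.97% elsewhere, and 82.0% of them had a SOX2-OFF peak. Ranked among shared regions only, calls were 9.03% and 7.79% (53.7%), promoters 3.60% and 3.69%, other regions 11.9% and 9.93%, naive 4.60% and early streak 9.46% towards CEpiLC, TCF/LEF 7.16%, and SOX2-OFF peaks 82.5% and 88.1%. With all 19 autosomes, calls were 8.88% and 12.4% (41.7%) and widths 14.0% and 9.73%. At 10 points, calls were 14.6% and 36%. With promoters within 200 bp, they were 1.98% and 5.91%. With gene bodies and 50 kb on either side, early streak genes had 2.80% towards SOX2-ON. In 200 bp windows outside promoters, SOX was in 4.66% and 2.36%, and TCF/LEF in 3.37% and 4.24%.

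With regions at percentile 80 or more in the higher list, a limit added after seeing the data that called regions meet through the list in which they are high, calls towards CEpiLC were 2.63% near naive and 11.4% near early streak genes, SOX was in 8.60% of windows higher in SOX2-ON, and TCF/LEF in 4.17% and 10.1%. One library per group, lists that end at the caller's threshold and an unknown depth limit every value.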
